A study of Mus musculus with 9 samples.

Results

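Imprinted genes outside the H19-Cdkn1c region of distal chromosome 7 were followed in B16 cells, a mouse melanoma line, with a control hairpin or either of a pair of knockdown hairpins. The list held 10 genes chosen by name: Plagl1, Mest, Peg3, Peg10, Grb10, Meg3, Dlk1, Impact, Igf2r and Sgce. Of these, 8 had a row in the tables of 21676 genes and are described here, and Peg3 and Meg3 were not analysed here. Of the 8, Grb10 and Dlk1 had too few reads for edgeR's filter on low counts, so 6 members were among the 13807 genes tested. Total RNA was sequenced from 3 groups of 3 biological replicates, labelled shAD4-1, shAD4-2 and shControl (written shCotrol in the sample titles). By the series title the target of the hairpins is the adhesion receptor ADGRL4, whose own gene was not analysed here, so the knockdown was not checked. All groups were the same line in culture medium with serum, and the labels do not say whether a hairpin group was 1 clone or a pool, nor what else the vectors carried.

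A genomically imprinted gene is transcribed mainly from the allele inherited from 1 parent, because methylation laid down in egg or sperm at a control region is kept on that allele through cell division. The paternal allele is the active one for Plagl1, Mest, Peg10, Sgce, Impact and Dlk1 in mouse, the maternal one for Igf2r, and for Grb10 the maternal one in most tissues and the paternal one in neurons. Many imprinted genes act on growth: IGF2R removes the growth factor IGF2, GRB10 restrains the insulin and IGF1 receptors, and PLAGL1 is a transcription factor that can arrest the cell cycle. Gene counts do not separate the parental alleles, so every value below is the sum of both.

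The promoters below show how the start regions of some members differ in CG content, the letters that carry imprint methylation. Windows were taken at gene starts, and whether they hold the control region of an imprint was not tested. They are RefSeq sequences of build GRCm38.p6, each 250 bases before to 50 bases after a start, 5′ to 3′ on the gene's strand, with every CG in capitals. Mest is shown at its upstream and downstream starts and Grb10 at its upstream start. The downstream window of Grb10, not shown, held 9 CG. No window is shown for Peg10, Sgce or Impact.
Plagl1 promoter, chr10:13090582-13090881, + strand: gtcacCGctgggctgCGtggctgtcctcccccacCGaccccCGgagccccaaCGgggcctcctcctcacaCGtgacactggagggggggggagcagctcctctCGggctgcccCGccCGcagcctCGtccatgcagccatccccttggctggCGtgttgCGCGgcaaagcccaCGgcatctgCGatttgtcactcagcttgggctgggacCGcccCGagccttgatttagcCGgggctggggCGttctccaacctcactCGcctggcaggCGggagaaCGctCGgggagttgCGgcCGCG
Mest upstream promoter, chr6:30733256-30733555, + strand: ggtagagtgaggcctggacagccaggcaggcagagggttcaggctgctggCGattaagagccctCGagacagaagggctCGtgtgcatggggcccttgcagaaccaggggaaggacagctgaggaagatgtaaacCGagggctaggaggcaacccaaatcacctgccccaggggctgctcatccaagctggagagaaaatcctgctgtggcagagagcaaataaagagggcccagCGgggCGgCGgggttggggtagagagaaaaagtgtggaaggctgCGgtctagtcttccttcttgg
Mest downstream promoter, chr6:30737800-30738099, + strand: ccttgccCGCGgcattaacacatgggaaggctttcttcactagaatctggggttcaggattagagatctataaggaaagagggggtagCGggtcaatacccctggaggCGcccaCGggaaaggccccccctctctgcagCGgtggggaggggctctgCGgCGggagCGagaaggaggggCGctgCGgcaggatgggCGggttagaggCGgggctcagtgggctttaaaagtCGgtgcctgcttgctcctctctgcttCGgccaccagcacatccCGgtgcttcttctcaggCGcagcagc
Igf2r promoter, chr17:12769657-12769956, - strand: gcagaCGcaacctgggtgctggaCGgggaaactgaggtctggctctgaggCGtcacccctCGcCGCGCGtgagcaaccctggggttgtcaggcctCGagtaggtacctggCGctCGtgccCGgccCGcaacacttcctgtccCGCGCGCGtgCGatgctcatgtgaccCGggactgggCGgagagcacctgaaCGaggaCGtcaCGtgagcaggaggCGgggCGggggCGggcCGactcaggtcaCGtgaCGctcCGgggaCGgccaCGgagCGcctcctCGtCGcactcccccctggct
Grb10 upstream promoter, chr11:12037371-12037670, - strand: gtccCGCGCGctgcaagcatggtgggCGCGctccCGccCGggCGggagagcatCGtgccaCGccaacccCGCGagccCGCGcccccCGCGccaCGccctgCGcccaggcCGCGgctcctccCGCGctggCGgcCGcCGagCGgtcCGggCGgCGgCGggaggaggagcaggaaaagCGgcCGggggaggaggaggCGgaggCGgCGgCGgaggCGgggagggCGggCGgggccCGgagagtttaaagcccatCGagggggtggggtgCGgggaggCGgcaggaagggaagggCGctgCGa
Dlk1 promoter, chr12:109452573-109452872, + strand: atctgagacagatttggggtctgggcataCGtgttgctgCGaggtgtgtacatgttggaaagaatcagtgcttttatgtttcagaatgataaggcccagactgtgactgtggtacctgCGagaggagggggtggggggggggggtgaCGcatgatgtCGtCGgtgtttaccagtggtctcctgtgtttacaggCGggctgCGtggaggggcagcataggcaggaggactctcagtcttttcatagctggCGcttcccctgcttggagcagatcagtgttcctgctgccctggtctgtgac
The Grb10 upstream window held 45 CG, more than 98.1% of the 32851 mouse promoters in the same table, and the Igf2r window held 34. Plagl1 had 26 CG and the Mest downstream window 17, while Dlk1 had 9 and the Mest upstream window 8, close to the median of 7 over all promoters. The hexamer TGCCGC, the letters recognised by the imprint guardian ZFP57 when methylated, was searched on both strands as TGCCGC and GCGGCA. It occurred 1 time each in the Plagl1 and Grb10 upstream windows and 2 times in the Mest downstream window, while the Mest upstream, Igf2r and Dlk1 windows held none. Of all promoters, 11.6% held a match. A match is a description of letters, not a bound site, and gene counts do not tell which start was used.

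Each library held 35.8 to 36.9 M counted reads for shAD4-1, 31.3 to 36.4 M for shAD4-2 and 31.5 to 36.4 M for shControl. All 9 listed markers of the melanocyte lineage were detected, with summed levels of 10125 to 10343 CPM (the read count scaled to the library total) in shAD4-1, 10990 to 12008 CPM in shAD4-2 and 11288 to 12984 CPM in shControl libraries. With shAD4-1, 0 of the 9 rose, 8 fell and 1 did not pass by edgeR, and with shAD4-2, 3 rose, 2 fell and 4 did not pass. Between the hairpins, 6 of the 9 were higher and 0 lower with shAD4-2 than with shAD4-1. Of all tested genes, 13.4% were higher and 14% lower in that comparison. Leukocyte markers summed to 4.37 to 4.79 CPM in shAD4-1, 3.45 to 4.37 CPM in shAD4-2 and 3.02 to 3.45 CPM in shControl libraries. Fibroblast markers summed to 7.06 to 8.97 CPM in shAD4-1, 7.70 to 8.64 CPM in shAD4-2 and 4.31 to 6.65 CPM in shControl libraries. Endothelial markers summed to at most 0.166 CPM in hairpin and 0.283 CPM in shControl libraries. Listed epithelial markers were not analysed here. The 13 mitochondrially encoded genes took 3.62 to 3.81% of reads in shAD4-1, 3.60 to 3.89% in shAD4-2 and 2.30 to 2.61% in shControl libraries. Whether that share or those markers had a part in any difference below was not tested. In bulk RNA, fewer cells that use a gene and less RNA per cell cannot be told apart. Most of the transcriptome differed between hairpin and control libraries, as 65% of tested genes passed the test for shAD4-1 and 69% for shAD4-2.

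With shAD4-1, 5 of the 6 tested members passed edgeR's quasi-likelihood test at a Benjamini-Hochberg adjusted p of 0.05 over all tested genes, 3 of them higher and 2 lower than in shControl cells, where 32.7% of all tested genes were higher and 32.3% lower. With shAD4-2 all 6 tested members passed, 2 higher and 4 lower, beside 34.2% of all tested genes higher and 34.8% lower. The libraries of hairpin and control did not overlap for those same 5 members with shAD4-1, against 68% of all tested genes, and for 6 with shAD4-2, against 70.6%. The median log2 fold change of the 6 tested members was 0.03 for shAD4-1 and -0.18 for shAD4-2, beside -0.01 over all tested genes in each comparison. What set members apart was size: Plagl1 and Peg10 were well above control and Mest well below it, while Impact, Igf2r and Sgce differed by 1.25-fold or less. The comparisons of either hairpin use the same shControl libraries, so their values are given side by side and are not independent of each other.

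**Figure D1:**
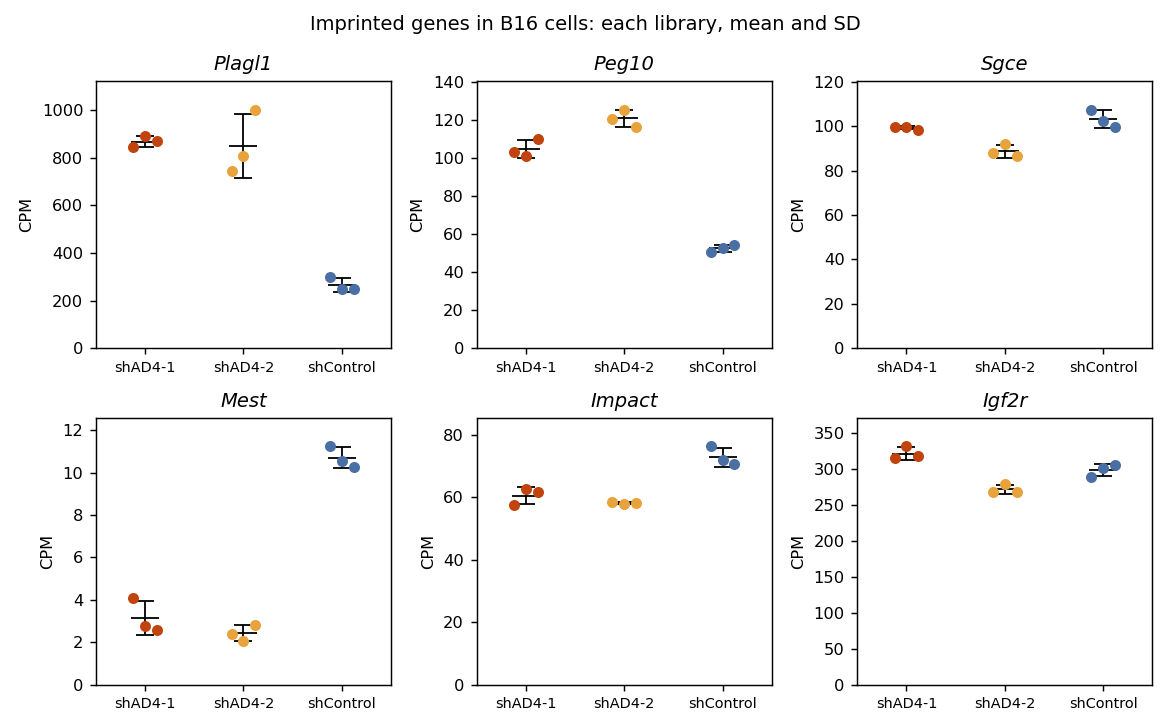
Level of each tested member in every library, in CPM on linear axes from 0, for shAD4-1, shAD4-2 and shControl; coloured points are libraries and black marks are group means with the SD (n = 3). Plagl1 and Peg10 sit higher in every hairpin library than in any shControl library and Mest sits lower.

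Per transcript length, the members spanned a wide range of levels in shControl cells. Sgce stood at 53.7 ± 2.26 FPKM, the read count scaled to gene length and library total (SD, n = 3), and Plagl1 at 50.9 ± 5.73, and these neighbours in the order overlapped, with libraries from 51.9 to 56.3 FPKM for Sgce and from 47.3 to 57.5 for Plagl1. Igf2r followed at 34.3 ± 0.883 FPKM, Peg10 at 8.10 ± 0.273 and Impact at 5.78 ± 0.263. Grb10 was far below at 0.00202 FPKM, and Dlk1 had no read. Mest, listed at 0.344 FPKM, is left out of this order because of its gene length, given with its values. In hairpin cells Plagl1 led the order, at 160.3 ± 4.08 FPKM with shAD4-1 and 157.4 ± 24.9 FPKM with shAD4-2.

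Plagl1, on chromosome 10, encodes the zinc finger transcription factor also called ZAC1, which can arrest the cell cycle and induce apoptosis. It was one of the more abundant genes of control cells, at the 94.0th percentile of FPKM, and rose about as much with either hairpin. It measured 844, 890 and 870 CPM in the shAD4-1 libraries and 745, 806 and 1002 CPM in the shAD4-2 libraries, against 298, 247 and 250 CPM in the shControl libraries. Every hairpin library was thus above every control library, and shAD4-2 replicate 3 was the highest of the 9. The log2 fold change was 1.71 (SE 0.08, adjusted p = 3.40e-12, edgeR) with shAD4-1, a 3.28-fold rise, and 1.68 (SE 0.08, adjusted p = 3.51e-12) with shAD4-2, a 3.21-fold rise. Rises of that size or more were called for 2.84% of tested genes with shAD4-1 and 3.09% with shAD4-2. Between the hairpins the difference was -0.03 on the log2 scale (95% interval -0.20 to 0.14, adjusted p = 0.828). The spread among replicates of shAD4-2 was wide, with a coefficient of variation of 15.8% against 2.67% in shAD4-1 and 10.8% in shControl. Among the 4919 tested genes with at least 50 CPM the median was 2.95% in shAD4-2, and Plagl1 lay at the 99.9th percentile there.

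Hymai, the imprinted noncoding transcript that overlaps Plagl1, was near the limit of detection. It had 23, 37 and 36 reads in shAD4-1 and 39, 28 and 16 in shAD4-2 libraries, against 3, 7 and 11 in shControl libraries. Each hairpin library had more reads than any control library. Hymai passed the filter on low counts only through the hairpin libraries, where it is high, so no test is given. Reads of overlapping genes such as this pair cannot be told apart, because the strand setting of the counting is not given in the sources used here. The next tested genes along the chromosome behaved differently. Stx11, a syntaxin of vesicle fusion, and Sf3b5, a splicing factor subunit, did not pass the test with either hairpin, with log2 fold changes between 0.01 and 0.10. Ltv1, a ribosome assembly factor on the other side, rose by 0.34 (SE 0.05) on the log2 scale with shAD4-1 and 0.49 (SE 0.05) with shAD4-2. Over all 709 tested genes of chromosome 10 the median log2 fold change was 0.24 for shAD4-1 and 0.28 for shAD4-2.

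Among other genes of the PLAG zinc finger family and genes linked to it, all 5 that were tested passed with each hairpin, 2 higher and 3 lower with shAD4-1 and 3 higher and 2 lower with shAD4-2. Of all tested genes 65% passed with shAD4-1 and 69% with shAD4-2. The relative Plagl2 rose by 0.37 (SE 0.06) on the log2 scale with shAD4-1 and 0.60 (SE 0.06) with shAD4-2, while Plag1, the founding member of the family, fell by 0.82 (SE 0.12) with shAD4-1 and 1.30 (SE 0.12) with shAD4-2. Ccng1, the gene of cyclin G1, rose by 0.31 (SE 0.04) with shAD4-1 and 0.68 (SE 0.04) with shAD4-2, and Tcf4, a basic helix-loop-helix factor, fell by 0.20 (SE 0.04) with shAD4-1 and 0.43 (SE 0.04) with shAD4-2. Plagl2 and Plag1, the closest relatives of Plagl1, thus went in opposite directions.

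Peg10 and Sgce lie head to head on chromosome 6 and are both paternally expressed, yet their levels parted. Peg10 derives from a retrotransposon gag and pol gene and is needed for the placenta, and Sgce encodes epsilon-sarcoglycan, a membrane protein of the dystrophin-associated complex. Peg10 measured 103.1, 101 and 110.1 CPM in shAD4-1 and 120.6, 126 and 117 CPM in shAD4-2 libraries, against 50.6, 52.8 and 54.4 CPM in shControl libraries. It rose 1.99-fold with shAD4-1 (log2 fold change 0.99, SE 0.05, adjusted p = 2.81e-12, edgeR) and 2.30-fold with shAD4-2 (1.20, SE 0.05, adjusted p = 1.58e-13). Rises of that size or more were called for 6.05% of tested genes with shAD4-1 and 4.87% with shAD4-2. Sgce measured 99.7, 99.5 and 98.5 CPM in shAD4-1 and 87.8, 92.0 and 86.4 CPM in shAD4-2 libraries, against 107.4, 102.3 and 99.7 CPM in shControl libraries. With shAD4-1 its libraries overlapped those of the control and the log2 fold change was -0.06 (95% interval -0.14 to 0.03, adjusted p = 0.26), or -0.02 (adjusted p = 0.703) without shControl replicate 1. With shAD4-2 it fell 1.16-fold (log2 fold change -0.22, SE 0.04, adjusted p = 1.95e-04).

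The ratio of the pair shows the same within each library, without scaling between libraries. Peg10 FPKM divided by Sgce FPKM was 0.312 ± 0.0161 in shAD4-1 and 0.403 ± 0.00364 in shAD4-2 cells, against 0.151 ± 0.0112 in shControl cells (SD, n = 3 each). The libraries ranged from 0.300 to 0.330 in shAD4-1, 0.399 to 0.406 in shAD4-2 and 0.139 to 0.161 in shControl, with no overlap. Further along the cluster the changes were mixed. Of the paraoxonases, which hydrolyse lactones, Pon3 rose by 0.87 (SE 0.04) on the log2 scale with shAD4-1 and 0.71 (SE 0.04) with shAD4-2, and Pon2 rose by 0.37 (SE 0.07) with shAD4-1 and 0.40 (SE 0.07) with shAD4-2. Casd1, a sialic acid acetyltransferase, rose by 0.35 (SE 0.05) with shAD4-1 and 0.31 (SE 0.05) with shAD4-2, while Ppp1r9a, a neuronal regulator of protein phosphatase 1, did not pass with either (-0.08 with shAD4-1 and -0.11 with shAD4-2). Col1a2, a collagen chain just outside, was low but rose by 2.62 (SE 0.26) on the log2 scale with shAD4-1 and 3.08 (SE 0.26) with shAD4-2. The 694 tested genes of chromosome 6 had a median log2 fold change of -0.05 with shAD4-1 and -0.13 with shAD4-2.

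Of 4 tested genes that share Peg10's descent from retrotransposon gag sequences, 1 rose with each hairpin. Of all tested genes, 32.7% were higher with shAD4-1 and 34.2% with shAD4-2. Rtl9 had 1.95 ± 0.35 CPM in shAD4-1 and 0.963 ± 0.32 CPM in shAD4-2 cells, against 0.560 ± 0.027 CPM in shControl cells, with log2 fold changes of 1.79 (SE 0.31) with shAD4-1 and 0.79 (SE 0.33) with shAD4-2. Rtl8c fell by 0.19 (SE 0.08) with shAD4-1 and 0.55 (SE 0.08) with shAD4-2. Rtl8a fell by 0.32 (SE 0.11) with shAD4-2 and did not pass with shAD4-1 (-0.11), and Rtl8b passed with neither (-0.11 with shAD4-1 and -0.15 with shAD4-2). The Rtl8 genes are near-identical copies, so the split of reads between them is uncertain.

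In the dystrophin complex around Sgce, 13 genes were tested, of which 5 rose and 5 fell with shAD4-1, and 2 rose and 6 fell with shAD4-2. The share called over all tested genes was 65% with shAD4-1 and 69% with shAD4-2. Dag1, the gene of dystroglycan, fell by 0.47 (SE 0.04) on the log2 scale with shAD4-1 and 0.36 (SE 0.04) with shAD4-2. Sgcb, beta-sarcoglycan, fell by 0.38 (SE 0.06) with shAD4-1 and 0.46 (SE 0.06) with shAD4-2, and Sntb1, a syntrophin adaptor, by 0.43 (SE 0.05) with shAD4-1 and 0.35 (SE 0.05) with shAD4-2. Utrn, the dystrophin relative utrophin, rose by 0.60 (SE 0.04) with shAD4-1 and 0.74 (SE 0.04) with shAD4-2.

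Mest, also on chromosome 6, encodes a membrane protein with an alpha/beta hydrolase fold, and it was the member that fell furthest. It had 148, 98 and 94 reads in shAD4-1 libraries (4.08, 2.78 and 2.59 CPM) and 86, 64 and 88 reads in shAD4-2 libraries (2.39, 2.07 and 2.84 CPM), against 365, 373 and 383 reads in shControl libraries (11.2, 10.6 and 10.3 CPM). Hairpin and control libraries did not overlap, and the highest hairpin library, shAD4-1 replicate 1, was still far below the lowest control. The libraries of the hairpins overlapped each other. Mest fell 3.39-fold with shAD4-1 (log2 fold change -1.76, SE 0.16, adjusted p = 1.80e-08, edgeR) and 4.39-fold with shAD4-2 (-2.13, SE 0.17, adjusted p = 1.97e-09). Falls of that size or more were called for 2.09% of tested genes with shAD4-1 and 2.07% with shAD4-2. Between the hairpins the difference was -0.37 (95% interval -0.76 to 0.01, adjusted p = 0.141), and it was -0.14 (adjusted p = 0.624) without shAD4-1 replicate 1.

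The deposited FPKM values imply a length of 31852 bases for Mest, longer than the 14961 bases from end to end of the RefSeq gene in build GRCm38.p6, so its counted region may reach beyond the gene and its FPKM is not comparable with that of other members. Mest overlaps Copg2, a coatomer subunit of Golgi vesicles that was far more abundant, at 264 ± 0.56 CPM in shAD4-1 and 224 ± 6.4 CPM in shAD4-2 cells, against 308 ± 20 CPM in shControl cells. By edgeR, Copg2 fell by 0.22 on the log2 scale (SE 0.04, adjusted p = 1.83e-04) with shAD4-1 and by 0.46 (SE 0.04, adjusted p = 2.72e-08) with shAD4-2, against the larger falls of Mest above. Whether reads of one were counted to the other was not tested. On the other side of Mest, Cep41, a centrosomal protein, fell by 0.43 (SE 0.09) with shAD4-1 and 0.40 (SE 0.09) with shAD4-2, and Tmem209 passed with neither hairpin (-0.02 with shAD4-1 and -0.06 with shAD4-2). Beyond Copg2, 2210408F21Rik fell by 0.26 (SE 0.07) with shAD4-2 and did not pass with shAD4-1 (-0.16).

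**Figure D2:**
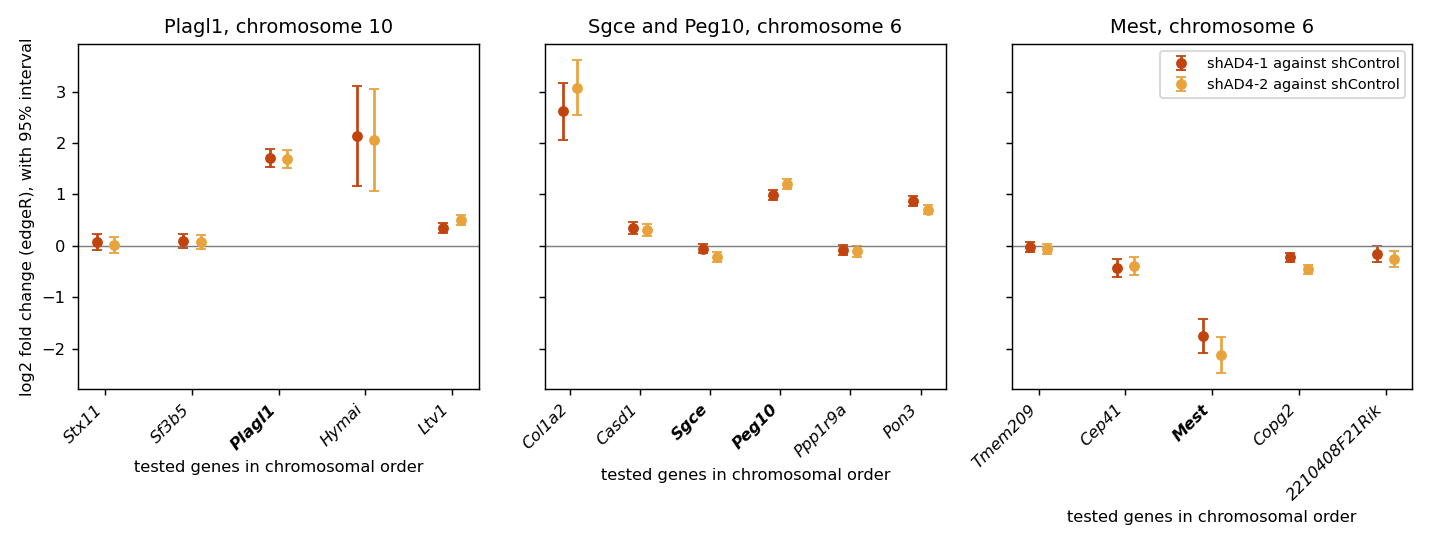
Log2 fold change against shControl, from edgeR with 95% intervals, of Plagl1, of Sgce and Peg10 and of Mest (bold) among their nearest tested genes in chromosomal order, for shAD4-1 and shAD4-2. Plagl1 stands above Stx11, Sf3b5 and Ltv1 but below Hymai, Peg10 above Sgce but below Col1a2, and Mest below Copg2. Hymai passed the filter on low counts only through the hairpin libraries, so its interval is not read as a test.

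**Figure D3:**
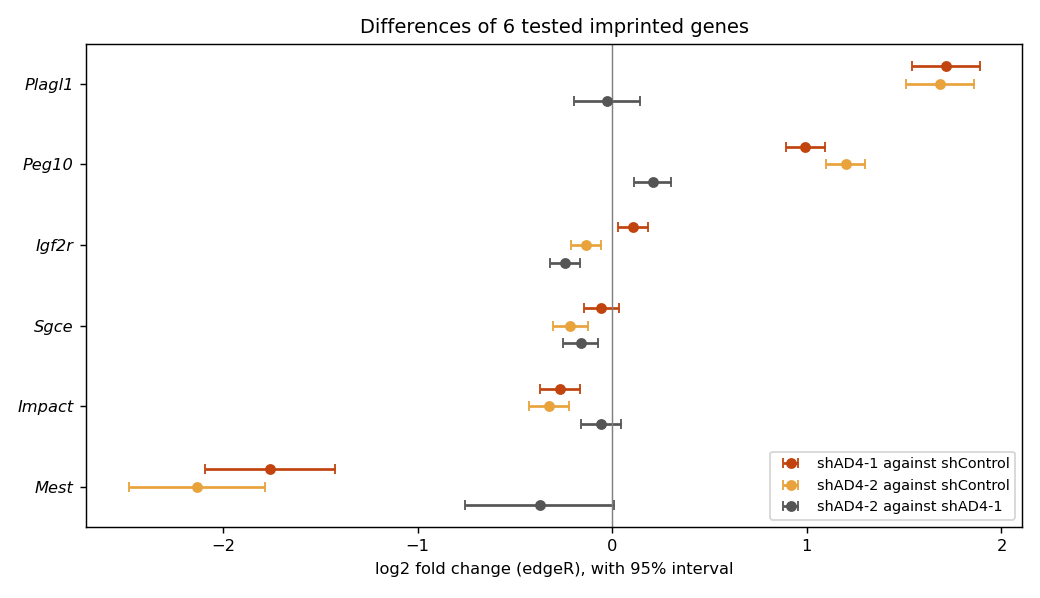
Log2 fold change of each tested member for shAD4-1 against shControl, shAD4-2 against shControl and shAD4-2 against shAD4-1, from edgeR over all 9 libraries; points are estimates and bars are 95% intervals. The difference between hairpins leaves 0 for Peg10, Igf2r and Sgce.

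Impact, on chromosome 18, encodes a protein that binds GCN1 and so restrains GCN2, the kinase that senses amino acid shortage. It was modestly lower with either hairpin. The libraries measured 57.4, 62.6 and 61.6 CPM with shAD4-1 and 58.5, 57.8 and 58.2 CPM with shAD4-2, against 76.3, 71.9 and 70.5 CPM in shControl. No hairpin library reached a control library. Impact fell 1.20-fold with shAD4-1 (log2 fold change -0.27, SE 0.05, adjusted p = 9.40e-05, edgeR) and 1.25-fold with shAD4-2 (-0.33, SE 0.05, adjusted p = 1.02e-05), with a difference between hairpins of -0.06 (95% interval -0.16 to 0.05, adjusted p = 0.419). The 347 tested genes of chromosome 18 had a median log2 fold change of -0.17 with shAD4-1 and -0.22 with shAD4-2. Its neighbour Ss18, a chromatin remodelling subunit, rose by 0.74 (SE 0.05) with shAD4-1 and 0.79 (SE 0.05) with shAD4-2, while Osbpl1a, a lipid-binding protein, fell by 0.14 (SE 0.05) with shAD4-1 and 0.25 (SE 0.05) with shAD4-2 and Taf4b, a transcription initiation subunit, by 0.24 (SE 0.08) with shAD4-1 and 0.22 (SE 0.08) with shAD4-2. Cabyr, at 0.371 CPM in shAD4-1, 0.278 CPM in shAD4-2 and 0.363 CPM in shControl cells, passed with neither hairpin.

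Of the genes listed around GCN2 all 14 were tested. With shAD4-1, 8 rose and 3 fell, and with shAD4-2, 4 rose and 3 fell, with median log2 fold changes of 0.12 for shAD4-1 and -0.01 for shAD4-2. Over all tested genes 65% were called with shAD4-1 and 69% with shAD4-2. Ppp1r15a, the phosphatase subunit that reverses eIF2 phosphorylation, rose by 0.70 (SE 0.05) with shAD4-1 and 0.71 (SE 0.05) with shAD4-2, and Dnajc27, a small GTPase with a J domain, by 0.70 (SE 0.07) with shAD4-1 and 0.82 (SE 0.07) with shAD4-2. Of a pair of ribosome-associated GTPases, Drg1 fell by 0.97 (SE 0.05) with shAD4-1 and 0.84 (SE 0.05) with shAD4-2, and Drg2 rose by 0.47 (SE 0.05) with shAD4-1 and 0.46 (SE 0.05) with shAD4-2.

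Igf2r, on chromosome 17, encodes the receptor that carries mannose 6-phosphate enzymes and IGF2 to the lysosome. It was the only tested member called in opposite directions by the hairpins, and the changes were small. It measured 315, 331 and 317 CPM in shAD4-1 and 267, 279 and 268 CPM in shAD4-2 libraries, against 288, 301 and 305 CPM in shControl libraries. All shAD4-1 libraries were above the controls and all shAD4-2 libraries below them. The log2 fold change was 0.11 with shAD4-1 (SE 0.04, 95% interval 0.03 to 0.19, adjusted p = 0.0170, edgeR) and -0.14 with shAD4-2 (SE 0.04, adjusted p = 0.00362). The shAD4-1 call was lost when shAD4-1 replicate 2 was left out (0.09, adjusted p = 0.0933), with upper-quartile scaling (0.09, adjusted p = 0.0567) and with limma on log2 FPKM (0.05, adjusted p = 0.255). The 682 tested genes of chromosome 17 had a median log2 fold change of 0.15 with shAD4-1 and 0.14 with shAD4-2. Across all tested genes 91, or 0.659%, were called in opposite directions with the hairpins.

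Airn, the noncoding RNA that runs antisense through Igf2r and silences the paternal allele in mouse, was low at 2.10 ± 0.35 CPM in shAD4-1 and 1.78 ± 0.14 CPM in shAD4-2 cells, against 1.72 ± 0.13 CPM in shControl cells. It passed with neither hairpin, with log2 fold changes of 0.29 (SE 0.22, adjusted p = 0.248, edgeR) for shAD4-1 and 0.05 (SE 0.22, adjusted p = 0.847) for shAD4-2. Airn overlaps the far more abundant Igf2r, and without the strand setting reads of this pair cannot be told apart. Of the neighbours, Map3k4, a stress kinase, rose by 0.18 (SE 0.06) with shAD4-1 and did not pass with shAD4-2 (-0.12), 4732491K20Rik rose by 0.59 (SE 0.11) with shAD4-1 and 0.42 (SE 0.11) with shAD4-2, and Mrpl18, a mitochondrial ribosomal protein, rose by 0.30 (SE 0.06) with shAD4-1 and 0.60 (SE 0.06) with shAD4-2. Around Igf2r and Grb10 in insulin and IGF signalling, 19 genes were tested, with 7 higher and 7 lower with shAD4-1 and 8 higher and 8 lower with shAD4-2. The share called over all tested genes was 65% with shAD4-1 and 69% with shAD4-2. M6pr, the smaller mannose 6-phosphate receptor, fell by 0.35 (SE 0.04) with shAD4-1 and 0.40 (SE 0.04) with shAD4-2. Irs2, an adaptor of the insulin receptor, rose by 0.99 (SE 0.07) with shAD4-1 and 0.85 (SE 0.07) with shAD4-2, Nedd4, a ubiquitin ligase that binds GRB10, by 0.43 (SE 0.03) with shAD4-1 and 0.59 (SE 0.03) with shAD4-2, and the kinase gene Akt2 fell by 0.52 (SE 0.06) with shAD4-1 and 0.72 (SE 0.06) with shAD4-2.

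Grb10 and Dlk1 were nearly silent in control cells and gave a few reads per library with the hairpins. Grb10, on chromosome 11, had 5, 8 and 7 reads in shAD4-1 and 10, 8 and 6 reads in shAD4-2 libraries, against 1, 0 and 0 reads in shControl libraries. Relative to the library totals that was 18.7 times the control level with shAD4-1 (95% exact counting interval 2.99 to 776) and 24.8 times with shAD4-2 (4.04 to 1019). Dlk1, on chromosome 12, encodes a membrane protein with EGF-like repeats related to Notch ligands. It had 3, 4 and 8 reads in shAD4-1 and 3, 3 and 1 reads in shAD4-2 libraries, against 0 reads in each shControl library. With 3 reads over the group put in for the control count of 0, the Dlk1 ratio was 4.68 with shAD4-1 and 2.41 with shAD4-2. The Dlk1 ratios take the hairpin reads as counted and leave out their counting error, so lower ratios are possible. The Grb10 intervals cover counting error only. With no filter on low counts, edgeR gave Benjamini-Hochberg adjusted p values for Grb10 of 0.00378 with shAD4-1 and 8.88e-04 with shAD4-2, and for Dlk1 of 0.00472 with shAD4-1 and 0.0357 with shAD4-2. That fit gave far smaller values than the main edgeR fit for abundant members, as 5.25e-85 against 2.81e-12 for Peg10 with shAD4-1. Its p values are therefore not comparable with the others here, and both genes failed the filter of the main fit.

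Other genes of the Dlk1 cluster showed the same low signal. Rtl1, a retrotransposon-derived gene needed by the placenta, had 5, 6 and 11 reads in shAD4-1 and 7, 4 and 10 reads in shAD4-2 libraries. Each shControl library had 0. With 3 reads put in for the control as for Dlk1, the Rtl1 ratio was 6.86 with shAD4-1 and 7.23 with shAD4-2. Its deposited FPKM values imply a length of 30955 bases, close to the 31852 bases for Mest. The counted region may thus also reach beyond the gene, and whether reads of other transcripts were counted to Rtl1 was not tested. Rian, a maternally expressed noncoding RNA, had 9, 6 and 4 reads in shAD4-1 and 5, 5 and 9 reads in shAD4-2 libraries. Each shControl library had 0. The Rian ratio, found the same way and with the same limit, was 5.93 with shAD4-1 and 6.54 with shAD4-2. Gains of more than 3 reads over a group were not rare among the 2685 genes with 0 reads over the shControl libraries. They were seen in 12.2% of these genes with shAD4-1 and 12.7% with shAD4-2. The share with gains as large as those of Rtl1 and Rian was not counted. Even in the hairpin cells no library had more than 11 reads of Dlk1, Rtl1, Rian or Grb10. Gm34719, the nearest tested gene after Dlk1, had 43, 22 and 29 reads in shAD4-1 and 28, 12 and 12 in shAD4-2 libraries, against 5, 1 and 3 in shControl libraries, and it too passed the filter only through the hairpin libraries, so no test is given. Wdr25 passed with neither hairpin (0.05 with shAD4-1 and -0.05 with shAD4-2), nor did Begain (-0.35 with shAD4-1 and -0.52 with shAD4-2), whose shControl libraries had 1, 28 and 24 reads. Gm6988 fell by 0.85 (SE 0.31) with shAD4-1 and did not pass with shAD4-2 (-0.09).

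**Figure D4:**
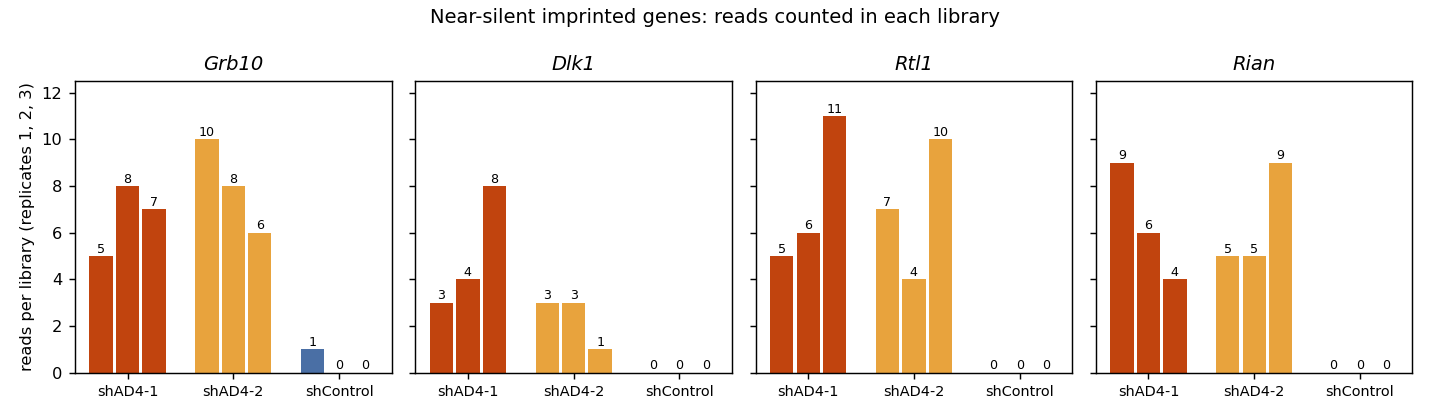
Reads per library of Grb10, Dlk1, Rtl1 and Rian in shAD4-1, shAD4-2 and shControl, on a linear axis from 0; each bar is 1 library. The shControl libraries hold 0 reads, but for 1 read of Grb10.

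Around Grb10 the tested neighbours changed in several ways. Abca13, a large lipid transporter gene, fell by 1.91 (SE 0.18) on the log2 scale with shAD4-1 and 3.33 (SE 0.20) with shAD4-2, and Fignl1, a recombination factor, rose by 0.56 (SE 0.07) with shAD4-1 and 0.97 (SE 0.07) with shAD4-2. Sec61g, a translocon subunit, rose by 0.15 (SE 0.06) with shAD4-2 and did not pass with shAD4-1 (-0.03), and Eldr fell by 0.67 (SE 0.27) with shAD4-1 and did not pass with shAD4-2 (-0.50). For Dlk1's pathway, 8 genes of the Notch list were tested, of which 2 rose and 2 fell with shAD4-1, and 1 rose and 4 fell with shAD4-2. Over all tested genes 65% were called with shAD4-1 and 69% with shAD4-2. Notch1, a receptor, rose, at 107 ± 2.5 CPM in shAD4-1 and 104 ± 5.1 CPM in shAD4-2 cells, against 19.6 ± 0.57 CPM in shControl cells, a log2 fold change of 2.45 (SE 0.05) with shAD4-1 and 2.41 (SE 0.05) with shAD4-2. The receptor gene Notch4 fell by 1.14 (SE 0.37) with shAD4-1 and 0.91 (SE 0.37) with shAD4-2 and the ligand gene Jag2 by 0.31 (SE 0.10) with shAD4-1 and 0.49 (SE 0.10) with shAD4-2, while Notch2 fell by 0.21 (SE 0.05) with shAD4-2 and did not pass with shAD4-1 (-0.10).

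Genes linked to setting, keeping or removing imprints changed in both directions. Of 26 tested genes, 10 rose and 9 fell with shAD4-1, and 14 rose and 8 fell with shAD4-2, with median log2 fold changes of -0.01 for shAD4-1 and 0.14 for shAD4-2. The share called over all tested genes was 65% with shAD4-1 and 69% with shAD4-2. Tet3, a dioxygenase that oxidises methylcytosine, rose by 0.98 (SE 0.05) with shAD4-1 and 1.10 (SE 0.05) with shAD4-2, while its relative Tet2 fell by 0.76 (SE 0.05) with shAD4-1 and 0.70 (SE 0.05) with shAD4-2. Smchd1, a silencer of imprinted clusters and the inactive X chromosome, rose by 0.66 (SE 0.05) with shAD4-1 and 0.73 (SE 0.05) with shAD4-2, and Daxx, a histone H3.3 chaperone, fell by 0.67 (SE 0.05) with shAD4-1 and 0.75 (SE 0.05) with shAD4-2. Between the hairpins, 9 of the 26 were higher and 0 lower with shAD4-2 than with shAD4-1 by edgeR, where 13.4% of all tested genes were higher and 14% lower. DNA methylation itself was not measured.

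Imprinted genes of other clusters, 13 of them tested, rose in 7 and fell in 5 cases with shAD4-1, and rose in 6 and fell in 5 with shAD4-2. Over all tested genes 65% were called with shAD4-1 and 69% with shAD4-2. Inpp5f, an inositol phosphatase gene on distal chromosome 7 outside the H19-Cdkn1c region, had 124 ± 0.93 CPM in shAD4-1 and 108 ± 3.2 CPM in shAD4-2 cells, against 50.1 ± 2.0 CPM in shControl cells, log2 fold changes of 1.31 (SE 0.04) with shAD4-1 and 1.11 (SE 0.04) with shAD4-2. Gnas, which encodes the stimulatory G protein subunit, fell by 0.37 (SE 0.04) with shAD4-1 and 0.40 (SE 0.04) with shAD4-2, and Adam23, a cell adhesion protein gene, by 0.85 (SE 0.12) with shAD4-1 and 1.20 (SE 0.13) with shAD4-2. Qpct, a glutaminyl cyclase gene, had 53 reads over the shAD4-1 and 64 over the shAD4-2 libraries, against 1 read over the shControl libraries, a ratio relative to the library totals of 49.6 (95% exact counting interval 8.53 to 1996) with shAD4-1 and 66.1 (11.4 to 2651) with shAD4-2. It is counted among the genes that rose, though it passed the filter only through the hairpin libraries. Of 7 tested partners in the members' own clusters, named above, 3 rose and 1 fell with each hairpin.

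The hairpins differed from each other in 3 of the 6 tested members, against 27.4% of all tested genes, and libraries of the hairpins did not overlap for those 3 members, against 44.5% of genes. Peg10 was higher with shAD4-2, at 121 ± 4.47 CPM with shAD4-2 and 104.7 ± 4.73 CPM with shAD4-1 (log2 difference 0.21, SE 0.05, adjusted p = 0.00259, edgeR). Igf2r was lower with shAD4-2, at 271 ± 6.55 CPM with shAD4-2 and 321 ± 8.80 CPM with shAD4-1 (-0.24, SE 0.04, adjusted p = 1.21e-04). Sgce was also lower with shAD4-2, at 88.7 ± 2.91 CPM with shAD4-2 and 99.2 ± 0.653 CPM with shAD4-1 (-0.16, SE 0.04, adjusted p = 0.00901). The Igf2r difference was 1.18-fold. All were smaller than the rises of Peg10 and Plagl1 or the fall of Mest against shControl.

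For the 3 members changed 2-fold or more with either hairpin, the genes most like them over the 9 libraries were found by the root mean square difference in log2 CPM centred on the shControl mean, among 12025 tested genes of at least 1 CPM. Hmga2, a chromatin architectural factor gene also on chromosome 10, was nearest to Plagl1 at 0.11, followed by Nat8f5 at 0.11 and the receptor gene Tnfrsf12a at 0.12, where the median over all genes was 1.40. Aire at 0.13, Pcdhb12 at 0.15 and Zfp937 at 0.19 were nearest to Mest, against a median of 1.56. Tlcd1 at 0.05, the repressor gene Zbtb7a at 0.06 and the actin regulator gene Enah at 0.07 were nearest to Peg10, against a median of 0.91.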

How the data were processed

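The data are total RNA libraries of B16 cells, 3 per group, prepared, per the labels' protocols, with a VAHTS Universal V6 kit. Per the submitters' processing notes, fastp, HISAT2 and HTSeq were used with build GRCm39, with no versions or strand setting given. The authors deposited whole-number counts per gene and FPKM of the same 21676 genes. Hairpin columns were matched to labels by group number (KD1 with shAD4-1, KD2 with shAD4-2). Counts were fitted with edgeR 4.0.16 (R 4.3.3) over all 9 libraries, with filterByExpr (13807 genes, 99.968% of reads), TMM scaling, quasi-likelihood tests and Benjamini-Hochberg adjustment over all tested genes at 0.05. CPM use the same scaling, each SE is the log2 fold change over the square root of F, and limma 3.58.1 on log2 FPKM and DESeq2 1.42.0 were alternatives. The fit was also run on counts simulated from its own estimates of spread, with far fewer genes changed than were called here. That run cannot check the called shares. Replicates of a group differed by more than counting noise (2.93 to 17.1 as chi-square over its degrees of freedom), so none was merged.

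Members and gene lists were chosen with earlier results of these data known, and lists were described by counts, not tested. The named genes are all members, the 2 nearest tested genes on each side of a member, every tested partner in the members' clusters, the 4 genes of each list with the smallest larger adjusted p over the comparisons with shControl, and the 3 genes most like each member changed 2-fold. Gene order and overlaps come from RefSeq GRCm38.p6. The series' design text calls the samples biological replicates but does not name their cultures, so p-values measure the spread between these samples.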

Additional observations from a re-analysis of the deposited data

Results flagged for a closer look

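The effect of shAD4-2 differed from that of shAD4-1 in 3 members by edgeR's test of the difference over the same 9 libraries. For Peg10 the shAD4-2 effect minus the shAD4-1 effect was 0.21 on the log2 scale (SE 0.05, adjusted p = 0.00259), with all 3 shAD4-2 libraries above the shAD4-1 libraries. For Igf2r it was -0.24 (SE 0.04, adjusted p = 1.21e-04) and for Sgce -0.16 (SE 0.04, adjusted p = 0.00901), with all 3 shAD4-2 libraries below the shAD4-1 libraries in each. Among all tested genes 27.4% passed this test.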

How the results depend on the processing

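Of 336 values of members under an alternative, 326 kept direction and side of the threshold, and 171 of 171 counts of calls stayed within 1.5 times. Calls of members ranged from 4 to 7 with shAD4-1 and from 5 to 8 with shAD4-2, both against shControl, and stayed at 3 between hairpins. The upper ends came from fits with no filter on low counts, which also took in Grb10 and Dlk1. Igf2r with shAD4-1 lost its call with upper-quartile scaling, without shAD4-1 replicate 2 and with limma. Sgce with shAD4-1, not called by edgeR, passed with limma on log2(FPKM + 1) (-0.11, adjusted p = 0.0209), with a pseudocount of 0.1 (-0.11, adjusted p = 0.0211) and with no filter (-0.11, adjusted p = 0.0309). For shAD4-1 the median over all genes was -0.05 with limma on log2(FPKM + 1) and -0.06 with the pseudocount of 0.1. It was -0.01 by edgeR. Whether that shift had a part in the Sgce and Igf2r calls was not tested. The Plagl1 difference between hairpins, uncalled throughout, turned to 0.059 (adjusted p = 0.660) without shAD4-2 replicate 1 and 0.01 (adjusted p = 0.961) without shAD4-2 replicate 2, in a range of -0.16 to 0.059 over libraries left out. The uncalled Impact difference between hairpins ranged from -0.09 to -0.03 over libraries left out. The cause was not tested. Mest could not be tested with limma at a minimum of 1 FPKM, and with no filter its change shrank to -0.29 with shAD4-1 and -0.32 with shAD4-2, since the pseudocount of 1 is above its FPKM.

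Same-numbered libraries of different groups did not deviate together (r from -0.124 to 0.002 over 9 pairs), so the numbers do not pair them. With a replicate block, 8833 genes were called with shAD4-1, 9375 with shAD4-2 and 3511 between hairpins, and 5, 6 and 3 members. Leaving out 1 library at a time, those counts of genes ranged from 8372 to 9206, from 8985 to 9704 and from 2785 to 4937. Depth limits Grb10 and Dlk1, which rest on at most 10 reads a library.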
